A study of Homo sapiens with 3 samples.

Results

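Aminoacyl-tRNA synthetases are the enzymes that attach each amino acid to its transfer RNA. Their 35 genes measured in C33A cells were taken from the array by gene symbol, without use of any value. They comprise 19 genes for the cytosolic enzymes and 16 genes for the mitochondrial enzymes, whose symbols end in 2, out of 18417 genes measured by probe sets with 1 gene symbol. C33A is a human cervical carcinoma line, free of papillomavirus, with mutant RB and p53. Total RNA came from 3 independent cultures that grew exponentially, without treatment, in serum-containing medium, and each was hybridized to 1 Affymetrix Human Gene 1.0 ST array. All 3 cultures belong to 1 group, so that the comparison made is between the cytosolic and the mitochondrial genes within each culture. Values are log2 intensities normalized by the Robust Multichip Average method, on which a difference of 1 is a doubling of signal, and each n counts cultures.

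Translation in the cytosol and translation in mitochondria use separate sets of transfer RNAs. Nuclear genes encode the synthetases for both compartments, in most cases a gene of its own for each. The enzymes fall into class I and class II, which have unrelated catalytic folds. Several cytosolic enzymes are held together in the multisynthetase complex by scaffold proteins such as AIMP1. When amino acids run short, the transcription factor ATF4 raises the transcription of many cytosolic synthetase genes through an amino acid response element. Mutations in synthetase genes cause peripheral neuropathies and encephalopathies.

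Pearson's r across all probe sets lay between 0.993 and 0.994 for the 3 pairs of arrays. The arrays carry no detection call, so background was taken from 459 genes for taste and olfactory receptors, beta-defensins and keratin-associated proteins, families silent in most tissues, whose 95th percentile was 6.42. Only KRT18 of the 5 epithelial markers was above this bound on every array, while KRT8, KRT19, EPCAM and CDH1 had means of 4.52 to 5.92. Among the other cell type markers, KRT14 (6.86 ± 0.08, SD, n = 3), COL1A1 (7.24 ± 0.14, SD, n = 3) and the leukocyte gene PTPRC (8.82 ± 0.11, SD, n = 3) were above the bound on every array. KRT5, CD3E, COL1A2, DCN, LUM, PECAM1, CDH5 and VWF were not. The part of other cell types in the synthetase levels was not tested.

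All 35 synthetase genes had a signal above the bound on every array, as had 54.9% of all measured genes. Their levels nevertheless spanned 7.67 to 12.36, and the cytosolic genes took most of the upper places. Of the 19 cytosolic genes, 17 were in decile 10, the highest of 10 equal groups into which all genes were ranked by mean level. Only 1 of the 16 mitochondrial genes, IARS2, was in this decile, which by construction holds 10% of all genes and began at 9.83. The median percentile among all genes was 97.7 for the cytosolic and 71.0 for the mitochondrial genes. The probes of each gene differ in sequence and so in affinity, which makes the order of genes approximate.

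**Figure D1:**
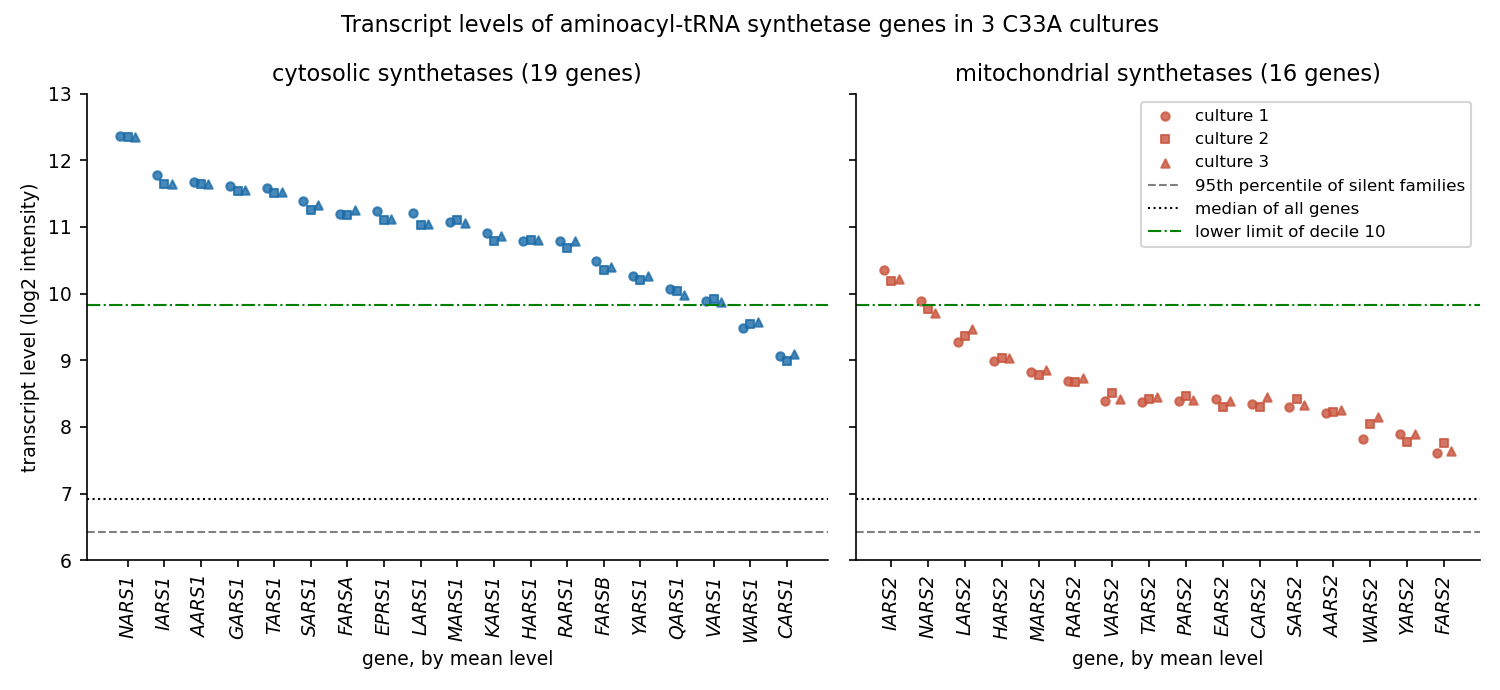
Transcript level (y axis, log2 intensity) of each cytosolic (left) and mitochondrial (right) synthetase gene, with 1 symbol per culture and genes ordered by mean level on the x axis. Lines mark the 95th percentile of the silent families (6.42), the median of all genes (6.91) and the lower limit of decile 10 (9.83). Of the cytosolic genes, 17 lie above this limit by their mean, against 1 mitochondrial gene.

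NARS1, which charges asparagine, was the highest of all synthetase genes, with 12.37, 12.35 and 12.35 in the 3 cultures (mean 12.36 ± 0.01, SD, n = 3), rank 57 among all measured genes. IARS1, the isoleucine enzyme, followed with 11.77, 11.64 and 11.64 (11.69 ± 0.07, SD, n = 3). AARS1, the alanine enzyme, had 11.67, 11.64 and 11.65 (11.65 ± 0.02, SD, n = 3). NARS1 stood clear of the next gene in every culture, while the values of IARS1 and AARS1 overlapped. GARS1, the glycine enzyme, had 11.61, 11.53 and 11.55 (11.56 ± 0.04, SD, n = 3). TARS1, the threonine enzyme, had 11.59, 11.51 and 11.52 (11.54 ± 0.04, SD, n = 3). The ranges of GARS1 and TARS1 over the cultures overlapped, although GARS1 was higher within each culture.

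The middle of the cytosolic group lay within a narrow span. SARS1 for serine (11.32 ± 0.06), FARSA for the alpha subunit of the phenylalanine enzyme (11.21 ± 0.04) and EPRS1 for glutamate and proline (11.16 ± 0.08) led it. They were followed by LARS1 for leucine (11.09 ± 0.10), MARS1 for methionine (11.07 ± 0.02), KARS1 for lysine (10.85 ± 0.06), HARS1 for histidine (10.80 ± 0.01) and RARS1 for arginine (10.75 ± 0.06, SD, n = 3 each). From SARS1 to MARS1, and again from KARS1 to RARS1, each gene overlapped the next in its culture values. FARSB, the beta subunit of the phenylalanine enzyme, had 10.49, 10.35 and 10.40, and FARSA had 11.20, 11.18 and 11.26. Both subunits form a single enzyme, and the part of probe affinity in the gap was not tested.

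The lowest cytosolic genes were all of class I. QARS1, the glutamine enzyme, had 10.06, 10.03 and 9.98 (10.03 ± 0.04, SD, n = 3), a little below YARS1 for tyrosine (10.24 ± 0.03, SD, n = 3). VARS1, the valine enzyme, had 9.89, 9.92 and 9.87 (9.89 ± 0.03, SD, n = 3). WARS1, the tryptophan enzyme, had 9.48, 9.54 and 9.57 (9.53 ± 0.05, SD, n = 3). CARS1, the cysteine enzyme, was the lowest of the group with 9.07, 8.99 and 9.09 (9.05 ± 0.05, SD, n = 3). WARS1 and CARS1 were the only cytosolic genes outside decile 10. VARS1 and VARS2 are the only members with 2 probe sets. Those of VARS1 gave the same values to every digit on every array and are not taken as 2 separate measurements. Those of VARS2 gave 8.39, 8.53 and 8.42 and 8.39, 8.49 and 8.41.

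Among the mitochondrial genes, IARS2 was the highest, with 10.36, 10.18 and 10.21 (10.25 ± 0.09, SD, n = 3). It stood at the level of YARS1, from which it differed by 0.01 with overlapping cultures. NARS2 followed with 9.88, 9.77 and 9.71 (9.79 ± 0.09, SD, n = 3), which overlapped VARS1. LARS2 had 9.28, 9.36 and 9.46 (9.37 ± 0.09, SD, n = 3), and HARS2 had 8.99, 9.03 and 9.03 (9.02 ± 0.03, SD, n = 3). IARS2, NARS2 and LARS2 were the 3 mitochondrial genes above CARS1, and HARS2 overlapped CARS1 in its culture values. By their means, the 13 genes from HARS2 downwards were below every cytosolic gene.

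MARS2 (8.82 ± 0.04) and RARS2 (8.70 ± 0.03) came next, each separated from its neighbours in every culture. VARS2 (8.44 ± 0.06), TARS2 (8.42 ± 0.04), PARS2 for proline (8.42 ± 0.03), EARS2 for glutamate (8.37 ± 0.06), CARS2 (8.36 ± 0.08) and SARS2 (8.35 ± 0.06, SD, n = 3 each) formed a run in which each gene overlapped the next. AARS2 had 8.20, 8.22 and 8.26 (8.23 ± 0.03, SD, n = 3). WARS2 had 7.81, 8.05 and 8.14 (8.0 ± 0.17, SD, n = 3), YARS2 had 7.89, 7.77 and 7.89 (7.85 ± 0.07, SD, n = 3), and FARS2 was the lowest synthetase gene with 7.61, 7.76 and 7.64 (7.67 ± 0.08, SD, n = 3). FARS2 nevertheless ranked above the median of all genes, 6.91. In the whole order of 35 genes, 18 of the 34 neighbouring pairs overlapped in their culture values and 16 did not. Overlap compares the ranges over the cultures, so genes that overlap can still keep their order within each culture.

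The cytosolic genes had a higher median level than the mitochondrial genes in each culture. The cytosolic medians were 11.07, 11.02 and 11.05 and the mitochondrial medians 8.39, 8.44 and 8.43. The difference was 2.67, 2.58 and 2.61 in the 3 cultures, with a mean of 2.62 ± 0.05 (SD, n = 3), or a signal 6.17 times as high. It exceeded the spread between cultures, which does not take in the differences in probe affinity between genes. An exact permutation test that flips the sign of each culture's difference gave p = 0.25 (two-sided), the smallest that 3 cultures allow. The means of 14 cytosolic genes lay above every mitochondrial gene, and the other 5, YARS1, QARS1, VARS1, WARS1 and CARS1, lay below IARS2.

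Each mitochondrial gene was also set against the cytosolic gene for the same amino acid, which gave 16 pairs. EPRS1, a fused enzyme, was paired with both EARS2 and PARS2, and FARS2, a single-chain enzyme, with the mean of FARSA and FARSB. The cytosolic gene was higher in all 16 pairs in every culture, by more than 1 log2 unit in 15 pairs and by more than 2 in 10. The median over the pairs was 2.30, 2.38 and 2.28 in the 3 cultures (mean 2.32 ± 0.05, SD, n = 3, exact permutation test over cultures, two-sided, p = 0.25, the smallest possible). Over the 13 pairs of 1 gene with 1 gene it was 2.05.

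The widest difference was that of the alanine enzymes. AARS1 exceeded AARS2 by 3.47, 3.42 and 3.39 (mean 3.42 ± 0.04, SD, n = 3, 10.7 times the signal). The phenylalanine enzyme followed, with FARSA and FARSB above FARS2 by 3.23, 3.01 and 3.19 (3.14 ± 0.12, SD, n = 3). TARS1 exceeded TARS2, which had 8.38, 8.42 and 8.46, by 3.21, 3.09 and 3.06 (3.12 ± 0.08, SD, n = 3). These were the 3 pairs past 3 log2 units.

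The narrowest difference was that of the cysteine enzymes. CARS1 exceeded CARS2, with 8.35, 8.29 and 8.45, by 0.72, 0.70 and 0.64 (0.69 ± 0.04, SD, n = 3, 1.61 times the signal). CARS1 was the lowest cytosolic gene, and CARS2 ranked 11 of 16 among the mitochondrial genes. IARS1 exceeded IARS2 by 1.41, 1.46 and 1.43 (1.43 ± 0.02, SD, n = 3), and VARS1 exceeded VARS2 by 1.5, 1.41 and 1.45 (1.46 ± 0.05, SD, n = 3). The isoleucine pair was thus among the narrowest, at 2.70 times the signal. Both of its genes were high, the second of the cytosolic and the first of the mitochondrial genes. The other 10 pairs differed by 1.53 (WARS1 and WARS2) to 2.98 (SARS1 and SARS2).

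**Figure D2:**
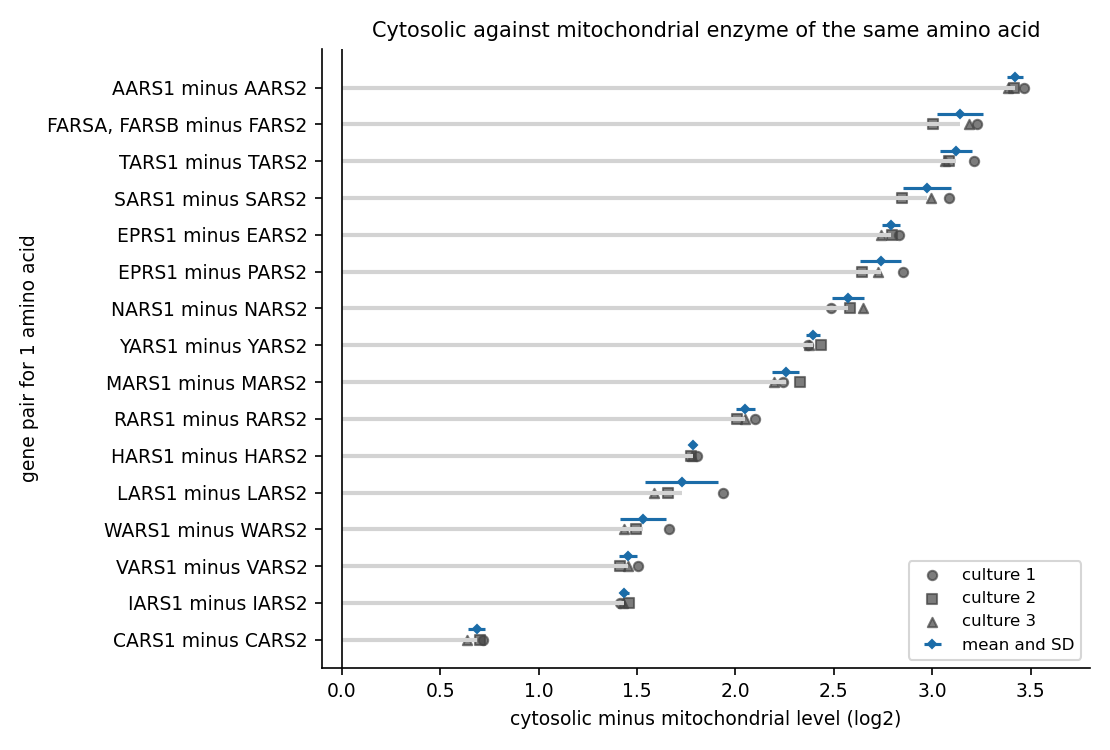
Cytosolic minus mitochondrial transcript level (x axis, log2) for the 16 gene pairs that serve the same amino acid (y axis). Grey symbols are the 3 cultures and blue diamonds with bars the mean and SD. Every culture lies above 0 in every pair, from 0.69 for CARS1 minus CARS2 to 3.42 for AARS1 minus AARS2.

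Across the 16 pairs the levels of the cytosolic and the mitochondrial gene had a Pearson's r of 0.52 and a Spearman's rho of 0.37. Over the 13 pairs of 1 gene with 1 gene, r was 0.59 and rho 0.49. Pairs are not independent replicates, and they share the same 3 arrays and, for EARS2 and PARS2, the same cytosolic gene. Without the isoleucine and asparagine pairs, picked because both of their genes are high, r was 0.24 and rho 0.07 over 14 pairs. Leaving out pairs picked in this way lowers a positive correlation, so no conclusion is drawn from the drop.

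**Figure D3:**
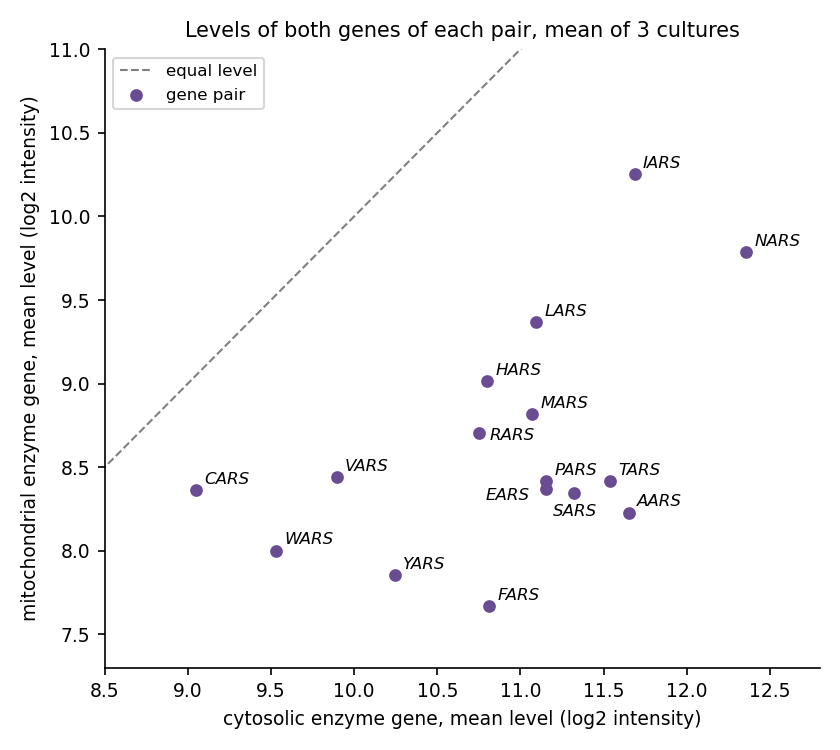
Mean level over 3 cultures (log2 intensity) of the cytosolic gene (x axis) and the mitochondrial gene (y axis) for each of 16 pairs, labelled by the mitochondrial symbol without its final digit. All points lie under the dashed line of equal level, and the IARS and NARS pairs lie apart at the upper right.

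GARS1, KARS1 and QARS1 have no separate mitochondrial gene. GARS1 and KARS1 make the enzyme of both compartments from the same gene, and mitochondria charge glutamine through a glutamyl-tRNA that the amidotransferase of QRSL1, GATB and GATC converts. KARS1 had 10.91, 10.79 and 10.86 and GARS1 lay higher, so both were within the cytosolic range. QRSL1 had 9.26, 9.27 and 9.24, GATB 8.32, 8.38 and 8.30, and GATC 9.77, 9.75 and 9.85. The amidotransferase genes were thus within the range of the mitochondrial synthetases, and all 3 exceeded the bound on every array.

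The 7 measured synthetases of the multisynthetase complex (IARS1, EPRS1, LARS1, MARS1, KARS1, RARS1 and QARS1) had a median of 11.07 and the 12 other cytosolic genes a median of 11.01. The complex members covered a narrower range, 10.03 to 11.69, against 9.05 to 12.36 outside it. AIMP1, a scaffold of the complex, had 8.09, 7.88 and 7.93 (7.97 ± 0.11, SD, n = 3), below each of these 7 genes in every culture. The other scaffold genes are not analysed here.

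By class, the cytosolic genes of class II were higher, with a median of 11.32 over 9 genes and none under 10.41. The 9 cytosolic genes of class I had a median of 10.24 and included the 5 lowest cytosolic genes. EPRS1 joins a class I and a class II enzyme and was counted in neither. Among the mitochondrial genes the medians were 8.42 over 7 genes of class II and 8.44 over 9 genes of class I. The class II members were therefore higher than class I members in the cytosolic group and at a like level in the mitochondrial group, as a description of these probe sets only.

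The arrays were made to relate transcript levels to binding of CHD8, a chromatin remodeller of the SNF2 family, at promoters of C33A cells. Of the 35 synthetase genes, 11 are on the list of CHD8 target genes obtained by ChIP-chip in this line, beside 9.63% of all measured genes and 555 of the 1842 genes in decile 10. They are 6 cytosolic genes, NARS1, IARS1, GARS1, TARS1, EPRS1 and MARS1, and 5 mitochondrial genes, MARS2, TARS2, WARS2, YARS2 and FARS2. The 6 cytosolic genes are all in decile 10. The 5 mitochondrial genes are outside it, and the share of listed genes in their own deciles is not given here. MARS1 with MARS2 and TARS1 with TARS2 are the pairs in which both genes are listed.

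The listed genes had unlike positions in the compartments. The 6 cytosolic targets had a median level of 11.55 and were all at 11.07 or above, against a median of 10.75 for the 13 cytosolic genes not on the list. The 5 mitochondrial targets had a median of 8.0 and included the 3 lowest mitochondrial genes, against a median of 8.44 for the 11 others. Over all measured genes the median was 9.11 for listed genes and 6.58 for the rest. Absence from the list does not show absence of CHD8, and the probe coverage of synthetase promoters in that experiment is not analysed here.

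RefSeq promoters (GRCh38.p14, 250 bases before to 50 bases after each annotated start) were listed for 30 of the 35 genes. LARS1, YARS1, VARS1, AARS2 and VARS2 are not among them. The amino acid response element, searched on both strands as TGATGNAA, where N is any base, was found in the promoters of 7 of 16 cytosolic genes and 1 of 14 mitochondrial genes. It was found for 4.46% of all 27305 genes with a promoter, and for 2.87% of those in decile 10. The 8 matches are shown because they fall mainly on the cytosolic genes of highest level, each in a window of 30 bases, 5′ to 3′ on the strand of the gene, with the element in capitals.
NARS1, chr18:57621804-57621833, minus strand: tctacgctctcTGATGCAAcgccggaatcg
IARS1, chr9:92293692-92293721, minus strand: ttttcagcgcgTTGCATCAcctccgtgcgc
AARS1, chr16:70289675-70289704, minus strand: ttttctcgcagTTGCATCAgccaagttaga
GARS1, chr7:30594834-30594863, plus strand: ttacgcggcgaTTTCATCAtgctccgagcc
TARS1, chr5:33440956-33440985, plus strand: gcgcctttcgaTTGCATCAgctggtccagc
MARS1, chr12:57488053-57488082, plus strand: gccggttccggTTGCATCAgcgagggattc
CARS1, chr11:3057407-3057436, minus strand: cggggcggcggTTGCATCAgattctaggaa
YARS2, chr12:32756076-32756105, minus strand: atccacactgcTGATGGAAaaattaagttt

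The match began 13 bases upstream of the start in IARS1, 33 in GARS1, 187 in AARS1 and 197 in YARS2. It spanned the start in MARS1 and CARS1, and it began at base 3 of the transcript in TARS1 and at base 15 in NARS1. In GARS1 and TARS1, which have more than 1 annotated start, the match lay in the window of only 1 start. Whether these 2 genes count as holding the element thus depends on the start used. With only the first listed start of each gene, 7 of the 8 genes were left, and the gene lost is not named here. Counting only matches upstream of the start, 4 of the 8 genes were left, IARS1, GARS1, AARS1 and YARS2. The contrast between the compartments thus rests in part on matches at or after the start. The share of all genes with an upstream match is not given here. The 5 synthetase genes of highest level, NARS1, IARS1, AARS1, GARS1 and TARS1, all held the element, but so did CARS1, the lowest cytosolic gene. The 7 cytosolic genes with the element had a median level of 11.56 and the 9 cytosolic promoters without it a median of 10.80. Of these 7 genes, 5 are on the CHD8 list (NARS1, IARS1, GARS1, TARS1 and MARS1), against 1 of the 9 others, EPRS1. Over the genes of decile 10 with a promoter, 15 of 45 with the element and 462 of 1522 without it are listed, which is a like share, and over all measured genes with a promoter 38 of 511 and 1474 of 13728. A match is a description of the sequence and not a bound site, and all cultures were grown in full medium.

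**Figure D4:**
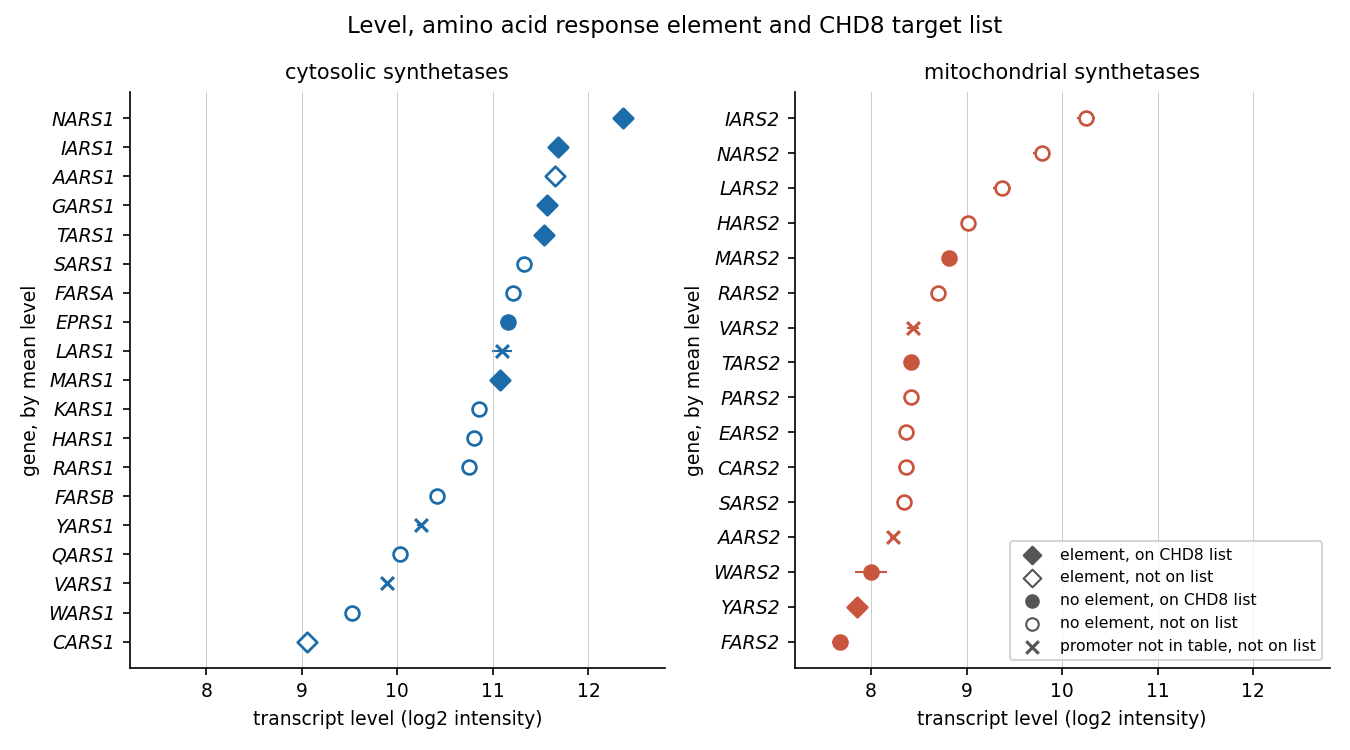
Mean transcript level of each synthetase gene (x axis, log2 intensity, bars show the SD over 3 cultures) for the cytosolic (left) and mitochondrial (right) genes. Diamonds are genes whose promoter holds the amino acid response element, circles genes without it and crosses genes with no promoter in the table, with filled symbols for genes on the CHD8 target list. The 5 highest cytosolic genes are diamonds, of which 4 are filled.

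Other motifs were shared more evenly by the compartments. The ETS motif CCGGAAG was found in 9 of 16 cytosolic (56.2%) and 7 of 14 mitochondrial promoters (50%), against 12.2% of all genes and 27.4% of genes in decile 10. The E2F motifs TTTGGCGC, TTTGCCGC, TTTCGCGC and TTTCCCGC, of interest because CHD8 acts with E2F factors, were found for TARS1, GARS1, RARS2 and EARS2, against 3.99% of all genes and 7.91% in decile 10. The NRF1 motif, GCGC and TGCGC with any 1 base between them, was found for 3 cytosolic (SARS1, FARSB and TARS1) and 3 mitochondrial genes (IARS2, MARS2 and PARS2), against 6.98% of all genes and 19% in decile 10. The YY1 motif AAGATGGC was found for NARS1, KARS1 and FARSA and for WARS2, YARS2 and SARS2, against 3.52% of all genes and 10.2% in decile 10. Both strands were searched for each motif. In the ETS counts, HARS1 and HARS2 both enter through the same 2 matches, which lie between their starts.

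Of the 30 genes with a promoter entry, 10 have the start of another gene on the opposite strand within 1000 bases, pointing away from theirs, beside 20.1% of all genes with a promoter and 527 of the 1567 in decile 10. The share of the members is thus like that of decile 10. However, 5 of the 10 are mitochondrial genes outside decile 10, and the share in their own deciles is not given here. HARS1 and HARS2, the cytosolic and mitochondrial histidine enzymes, are such neighbours of each other, with 84 bases between their starts. Both are counted among the 10. The stretch between them is shown because both members of a pair face it, read 5′ to 3′ in the direction of HARS2, with its 2 ETS matches in capitals.
HARS1 to HARS2, chr5:140691371-140691454, plus strand: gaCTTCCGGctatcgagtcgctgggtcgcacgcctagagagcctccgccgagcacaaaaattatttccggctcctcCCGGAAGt

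The stretch has 59.5% G and C and holds an ETS match near each end. HARS1 had 10.79, 10.80 and 10.81 and HARS2 8.99, 9.03 and 9.03, so that the genes on either side of these bases differed by 1.80, 1.77 and 1.78 in the 3 cultures (1.78 ± 0.02, SD, n = 3). FARS2 starts 56 bases from LYRM4, a factor of iron-sulfur cluster assembly, at 7.89 ± 0.02 (SD, n = 3), and the 2 genes had like levels. SARS2 starts 180 bases from MRPS12, a protein of the mitochondrial ribosome, at 8.46 ± 0.08 (SD, n = 3), again at a like level. In contrast, WARS1 exceeded its neighbour WDR25, at 6.56 ± 0.10 (SD, n = 3), and KARS1 its neighbour TERF2IP, a telomere protein, at 9.35 ± 0.06 (SD, n = 3). RARS2 was below ORC3, a subunit of the replication origin recognition complex, at 9.81 ± 0.04 (SD, n = 3), and EARS2 below UBFD1 at 8.92 ± 0.05 (SD, n = 3). The neighbours of TARS1 and FARSB were not measured here.

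Synthetase levels varied between the cultures about as much as those of other genes of their level. The median SD was 0.05 over the 35 genes, 0.04 over the cytosolic and 0.06 over the mitochondrial genes, against 0.04 over the genes of decile 10 and 0.08 over all measured genes. Of the 35 genes, 20 had an SD below the median of their own decile, beside 9207 of the 18417 measured genes. WARS2 had the largest SD, 0.17, which is 2.42 times the median of decile 7, with culture 1 below the other cultures. LARS1 had 11.21, 11.02 and 11.05, an SD of 0.10, and LARS2, with an SD of 0.09, had its lowest value in the culture where LARS1 was highest. The leucine pair therefore had the most variable difference, 1.94, 1.66 and 1.59 (1.73 ± 0.19, SD, n = 3).

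The cytosolic genes deviated in part together. Culture 1 was the highest for 12 of 19 cytosolic genes and 4 of 16 mitochondrial genes, beside 837 of the 1842 genes in decile 10 and 39.1% of all genes. Culture 2 was the lowest for 14 cytosolic and 6 mitochondrial genes, beside 611 of the genes in decile 10 and 35.8% of all genes. The deviations were small, with a median over the cytosolic genes of 0.04 in culture 1, -0.03 in culture 2 and -0.01 in culture 3. The cultures share 1 condition, and the pattern was noted after the values were seen.

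Other genes that act on transfer RNA charging ranged widely. Of 11 on this list, 8 were measured and 7 of them exceeded the bound on every array, with a median of 7.61. XPOT, which exports transfer RNA from the nucleus, was the highest at 10.67 ± 0.02 (SD, n = 3) and the only 1 in decile 10. PSTK, a kinase of the selenocysteine pathway, was the lowest at 6.36 ± 0.22 (SD, n = 3) and did not exceed the bound on every array. TARS3, a further threonyl-tRNA synthetase outside the symbol rule, had 6.84 ± 0.11 (SD, n = 3), below both TARS1 and TARS2.

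The elongation factors, some of which carry charged transfer RNA to the ribosome or move it there, also had the higher median in the cytosolic set. All 6 cytosolic factors exceeded the bound, 5 of them in decile 10, with a median of 11.49, from EEF1B2 at 8.36 ± 0.03 (SD, n = 3) to EEF1A1 at 13.77 ± 0.05 (SD, n = 3). The 3 measured mitochondrial factors had a median of 9.63, from TSFM at 8.90 ± 0.10 (SD, n = 3) to TUFM at 11.02 ± 0.05 (SD, n = 3). TUFM, which brings the product of the mitochondrial synthetases to the mitochondrial ribosome, was above all 16 mitochondrial synthetase genes.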

How the data were processed

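The authors scanned 3 Affymetrix Human Gene 1.0 ST arrays, applied Robust Multichip Average normalization and used oneChannelGUI for further processing. The deposited table holds a log2 intensity for each probe set on each array. The sources used here give no software versions. The number of arrays, 3, limits the precision.

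Gene names of probe sets came from the platform annotation, with symbols updated by gene ID through the RefSeq table of GRCh38.p14. Of 33297 probe sets, 19460 with 1 symbol were used and averaged per gene, 1754 had several symbols and 12083 no gene listed. Synthetases were chosen by symbol patterns, and 37 probe sets gave 35 genes. The CHD8 target list of the study's supplement was used as names only, matched by accession, symbol or synonym. Genes on the array that no table used here names are not analysed here.

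Differences were formed within each array and tested by exact sign permutation over arrays, two-sided. No test was made over genes. All members were named, with values per array for the highest and lowest, the extreme pairs and the largest SDs. The members, lists and motifs were chosen with earlier results of these data known. Protein sequences were not used here, so the planned search for class signatures was not run. The alternatives are given in the closing section. Functions were tested on simulated data. Computations used Python 3.11.15, NumPy 2.4.6, pandas 2.3.3, SciPy 1.17.1 and matplotlib 3.10.9.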

Additional observations from a re-analysis of the deposited data

How the results depend on the processing

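Under every alternative run, the cytosolic genes stayed above the mitochondrial genes. Their difference in median level was 2.60 to 2.64 log2 when each culture was left out in turn, 2.62 with the highest probe set of each gene, with each array centred on its median or without GARS1 and KARS1, 2.66 with only genes of 1 probe set and 2.23 with means over genes. Centring cannot change a difference formed within an array, so it is no check of it. GARS1 lay above and KARS1 below the cytosolic median in every culture, so leaving out both could not move it. The highest probe set could alter only VARS2 among the members, since the probe sets of VARS1 gave the same values. The median over pairs was 2.29 to 2.34 without each culture and 2.05 over the 13 pairs of 1 gene with 1 gene. Of the 35 genes, 32 exceeded the 99th instead of the 95th percentile of the silent families, 7.88, on every array. The others, WARS2, YARS2 and FARS2, are mitochondrial. The share of all measured genes above this higher bound is not given here. Of the 35 genes, 17 to 19 were in decile 10. With symbols compared only as written, 5 instead of 11 members were on the CHD8 list, since the list and the annotation write the cytosolic symbols differently. Matches to the amino acid response element fell to 4 genes upstream of the start and 7 genes with only the first listed start of each gene, alternatives chosen after seeing the data. The median SD of the members was 0.03 to 0.06 when each culture was left out, also chosen after seeing the data. Keeping probe sets with several symbols was not run, since none of them names a member. No paired analysis was possible because all cultures belong to 1 group, so that no groups of samples share replicate numbers, and the differences formed within each culture are between genes. The p of 0.25 is the smallest 3 cultures allow and says nothing about stability.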
